A study of Rattus norvegicus with 24 samples.

Results

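A pair of control arms of a rat arthritis study were set against each other at 34 days of treatment: 2 arrays of the ANE arm (anaesthesia control) and 2 arrays of the PLA arm (placebo), chosen by their titles among the 24 arrays of the series. Each array held RNA of peripheral blood mononuclear cells of 1 female Wistar rat, so the 4 arrays stood for 4 rats. All 4 rats had collagen-induced arthritis (CIA), raised with bovine type II collagen in Freund's adjuvant and a later booster, and neither arm had an active therapy. ANE rats breathed isoflurane when blood was drawn and had no other treatment. PLA rats had a weekly injection of sterile saline into the peritoneum, the placebo for methotrexate, and were put under ether for blood drawing. The arms thus differed in both the anaesthetic and the injection, and these cannot be told apart. The other arrays, 2 per group, came from untreated CIA rats, from healthy rats (NOCIA) and from arms with needle stimulation (MS) or methotrexate (MTX), some of them sampled at 1 hour. The rats' age was not stated.

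Mononuclear cells are the white blood cells with a round nucleus, which float above red cells and granulocytes on a density gradient. T cells, B cells, natural killer (NK) cells and monocytes make up most of them, and platelets and young red cells often come along. Volatile anaesthetics and a drawn-out procedure are known to alter stress hormones and the traffic of these cells through blood, and handled leukocytes switch on immediate early genes, which code for transcription factors and feedback regulators that appear within minutes of a stimulus. In bulk RNA, fewer cells of a type and less RNA per cell cannot be told apart.

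The values are RMA levels on the log2 scale, so that a difference of 1 is a 2-fold change. Differences are ANE minus PLA with the standard error (SE) from limma, in which the spread was pooled over all 12 groups of 2 arrays, and n = 2 rats per arm throughout. The p-values measure the spread between rats. The 4 arrays had medians between 5.55 and 5.58. The 2 ANE arrays differed from each other with an SD of 0.34 over probe sets and the 2 PLA arrays with an SD of 0.28, against 0.23 to 0.88 in the 12 groups, the widest being MS at 1 hour and at 34 days and ANE at 1 hour. The labelled cell type was borne out by its markers, since the T cell receptor chain Cd3e lay between 11.37 and 11.62 in the 4 rats. Pf4, the defining platelet chemokine, lay between 14.22 and 14.46, and the beta globin gene Hbb had a mean of 14.8 in both arms, so platelet and red cell RNA came with the preparation.

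No probe set separated the arms after adjustment. Of 20690 probe sets tested, 0 (0%) had a Benjamini-Hochberg adjusted p under 0.05 in limma, and the smallest adjusted p was 1. At an unadjusted p under 0.05 there were 635 (3.07%). That number also depended on how the spread was estimated: it was 2632 in a fit of the 4 arrays alone and 2967 with weights for array quality. At the study's own thresholds (unadjusted p under 0.05 and more than a 2-fold change) 111 probe sets passed (0.536%), 63 higher in ANE (0.304%) and 48 lower (0.232%). The median SE of a difference was 0.27. The count of calls depended on how the spread was estimated: a fit of the 4 arrays alone called 12 probe sets, a fit without 4 arrays of the series that stood apart (MS at 34 days rep 1, MS at 1 hour rep 1, ANE at 1 hour rep 1 and PLA at 1 hour rep 2) called 5, and weights for array quality called 85. All values below are therefore given as measured, without a call, and genes are said to be higher or lower only in these 4 rats.

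A rule took the 15 genes with the largest moderated statistic in each direction from the probe sets past the study's thresholds. In all 30 of them the 2 ANE levels lay on one side of the 2 PLA levels, which the rule favours; over all 11062 genes the arms did not overlap in 21.7% with ANE higher and in 24.2% with ANE lower.

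**Figure D1:**
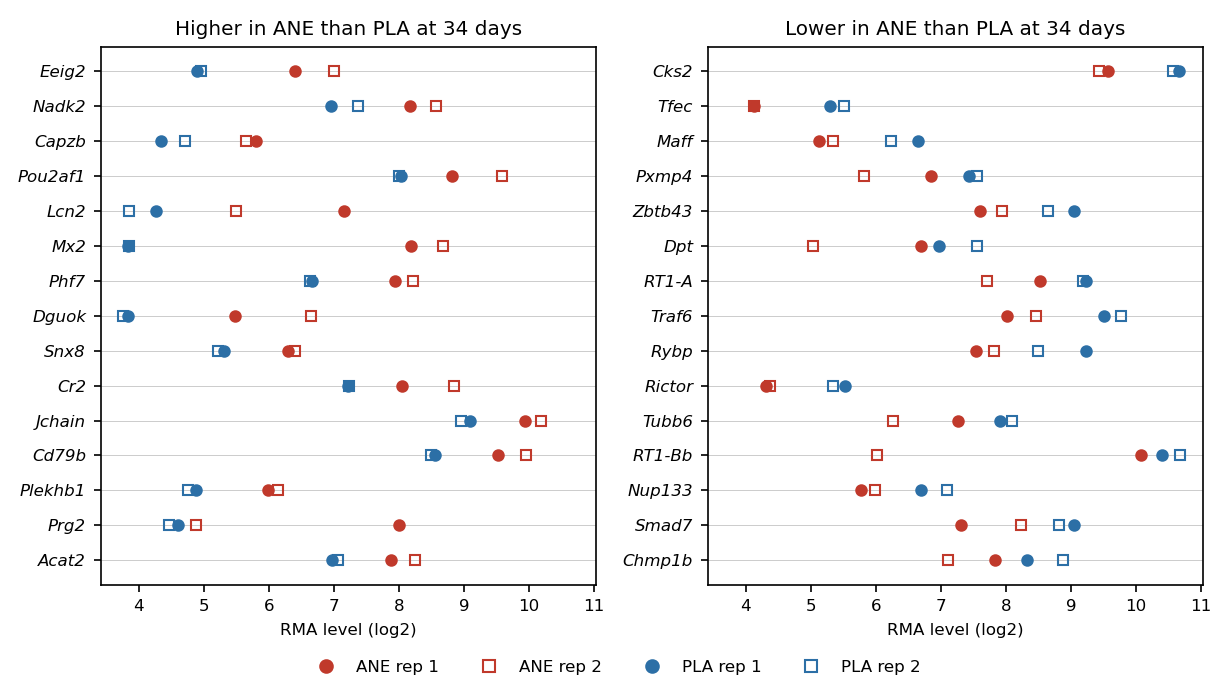
RMA level (log2, horizontal axis) in the 4 rats for the 15 higher and 15 lower genes, ordered by the moderated statistic; filled and open symbols are rep 1 and rep 2 of ANE (red) and PLA (blue). The gap between arms was widest for Mx2, at 8.19 and 8.68 in ANE against 3.83 and 3.84 in PLA, while for Prg2 and RT1-Bb a single ANE rat lay far from the other 3.

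B cell genes had the highest median of the lists. All 10 measured genes of the B cell list were higher in ANE on average, with a median of 0.79 against 0.0002 over all genes. Both ANE rats lay above both PLA rats in 7 and below them in 0, against 21.7% and 24.2% of all genes. In limma 5 had an unadjusted p under 0.05 (1.33% of all genes were higher at that level). The study's thresholds were passed by 4 (0.289% of all genes), and 0 passed adjustment. Cr2, the complement receptor of the B cell co-receptor, was at 8.05 and 8.84 in the ANE rats and at 7.21 and 7.23 in the PLA rats. This was a difference of 1.22 (SE 0.33), with both ANE rats above both PLA rats.

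Cd79b, a signalling chain of the B cell receptor, was at 9.52 and 9.96 in ANE and at 8.56 and 8.49 in PLA, a difference of 1.22 (SE 0.36). Pou2af1, the octamer co-activator of immunoglobulin transcription, was at 8.82 and 9.58 against 8.03 and 8.01, a difference of 1.18 (SE 0.28). Ms4a1, which encodes CD20, was at 9.68 and 10.32 against 8.97 and 8.75, a difference of 1.14 (SE 0.41). The pattern was shared: in these 3 genes, as in Cr2, ANE rep 2 was the highest of the 4 rats and the PLA rats lay close together. The other members did not all share the size: Fcrla differed by 0.91 (SE 0.30), whereas Cd22, an inhibitory B cell receptor, differed by 0.22 (SE 0.28) and Blk, a B cell kinase, by 0.20 (SE 0.24), both with overlapping arms. The median of the list was 0.52 without ANE rep 2 and 1.06 without ANE rep 1.

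Genes of antibody secretion were partly on the same side. Jchain, the joining chain of IgM and IgA, was at 9.94 and 10.18 in ANE and at 9.09 and 8.95 in PLA, a difference of 1.04 (SE 0.30). Mzb1, a chaperone of antibody assembly, was at 9.05 and 8.98 against 8.14 and 8.17, a difference of 0.86 (SE 0.30). The other 4 genes of the plasma cell list did not go with them: Tnfrsf17, Sdc1, Prdm1 and Xbp1 had differences from -0.23 to 0.26. Ciita, the master activator of MHC class II genes, was at 7.90 and 8.29 in ANE and at 7.26 and 7.34 in PLA (difference 0.79, SE 0.29), yet its target Cd74 differed by -0.06 (SE 0.39) and the class II chain RT1-Da by -0.05 (SE 0.38).

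T cell genes did not shift as a group. The 19 genes of the T cell list had a median of 0.01, with 10 above and 9 below 0. Of the 19 genes 3 were higher and 4 lower without overlap (21.7% and 24.2% of all genes). Cd3e differed by 0.01 (SE 0.42, 95% interval -0.88 to 0.90). NK and cytotoxic genes were lower on average in ANE in 20 of 21 cases, with a median of -0.45 and 11 genes below the PLA rats without overlap and 0 above (24.2% of all genes lay below). Gzmb, the granzyme of cytotoxic granules, was at 10.43 and 10.03 in ANE and at 11.17 and 10.57 in PLA, a difference of -0.64 (SE 0.75). The lectin-like receptor Klre1 was at 8.49 and 7.71 against 9.10 and 8.69, a difference of -0.80 (SE 0.66). PLA rep 1 held the highest level in both, and 0 of the 21 genes had an unadjusted p under 0.05, so these differences lay within the spread pooled over groups. The median was -0.23 without PLA rep 1 and -0.61 without ANE rep 1. Monocyte genes had a median of -0.11 over 22 genes, and Cd14, the monocyte co-receptor for endotoxin, was at 11.30 and 10.69 in ANE and 11.58 and 11.87 in PLA.

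**Figure D2:**
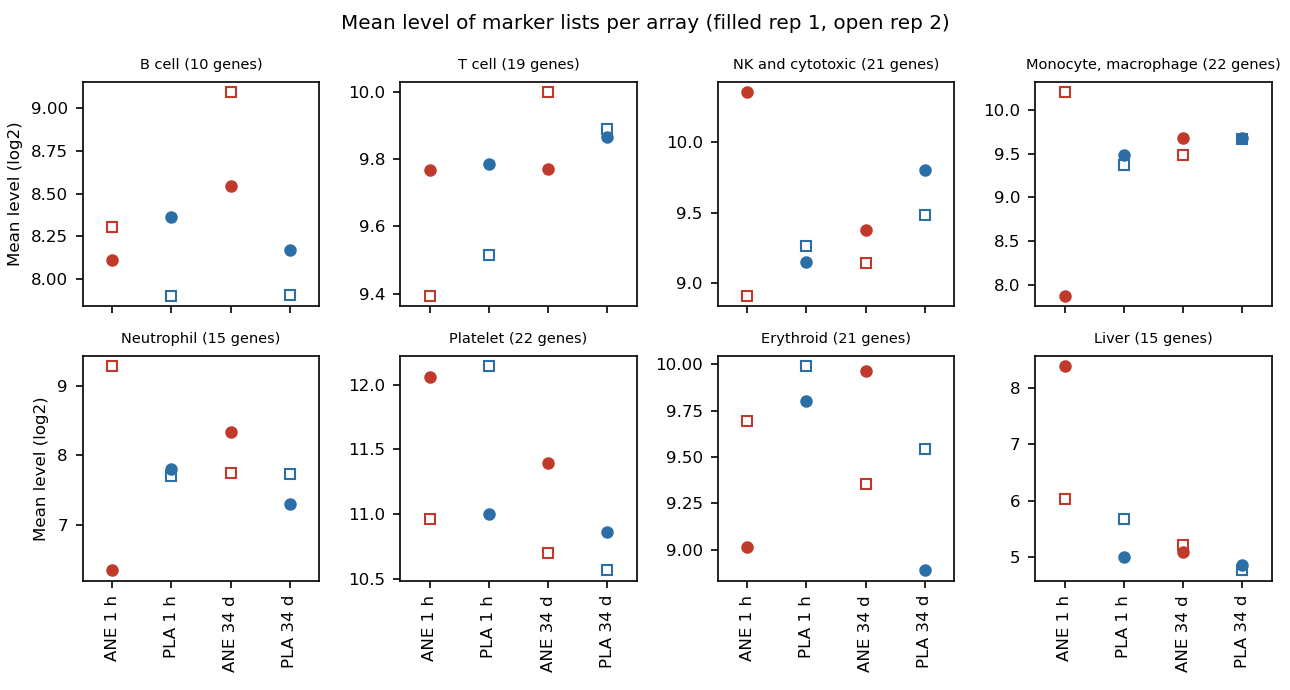
Mean RMA level (log2, vertical axis) over the genes of 8 marker lists in each array of ANE (red) and PLA (blue) at 1 hour and 34 days; filled symbols are rep 1 and open symbols rep 2, and each panel has its own scale. At 34 days the B cell mean was 8.55 and 9.09 in ANE and 8.17 and 7.91 in PLA; at 1 hour the same list overlapped between the arms.

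Immediate early genes were mostly lower in ANE. Of 35 genes 32 were lower in ANE on average and the median was -0.34. For 19 genes both ANE rats lay below both PLA rats and for 0 above them (24.2% of all genes lay below), 3 had an unadjusted p under 0.05 (1.28% of all genes were lower at that level), and 0 passed adjustment. The median was -0.19 without ANE rep 1 and -0.57 without ANE rep 2. Maff, a small Maf transcription factor, was at 5.12 and 5.35 in ANE and at 6.65 and 6.24 in PLA, a difference of -1.21 (SE 0.34).

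Mafk, of the same family, was at 7.87 and 8.08 in ANE and at 8.52 and 8.53 in PLA, a difference of -0.55 (SE 0.22). Fosl1, which encodes the AP-1 subunit FRA1, was at 5.02 and 4.93 against 5.81 and 5.71, a difference of -0.79 (SE 0.23). Both ANE levels of Fosl1 and of Maff lay below the medians of their arrays, 5.58 and 5.57, and no detection call was used. The stress-induced Gadd45g and Gadd45b were lower by -0.94 (SE 0.45) and -0.88 (SE 0.47). The best known members overlapped between the arms: Fos differed by -0.00 (SE 0.50, 95% interval -1.06 to 1.05) and Egr1 by -0.02 (SE 0.43, 95% interval -0.94 to 0.91).

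**Figure D3:**
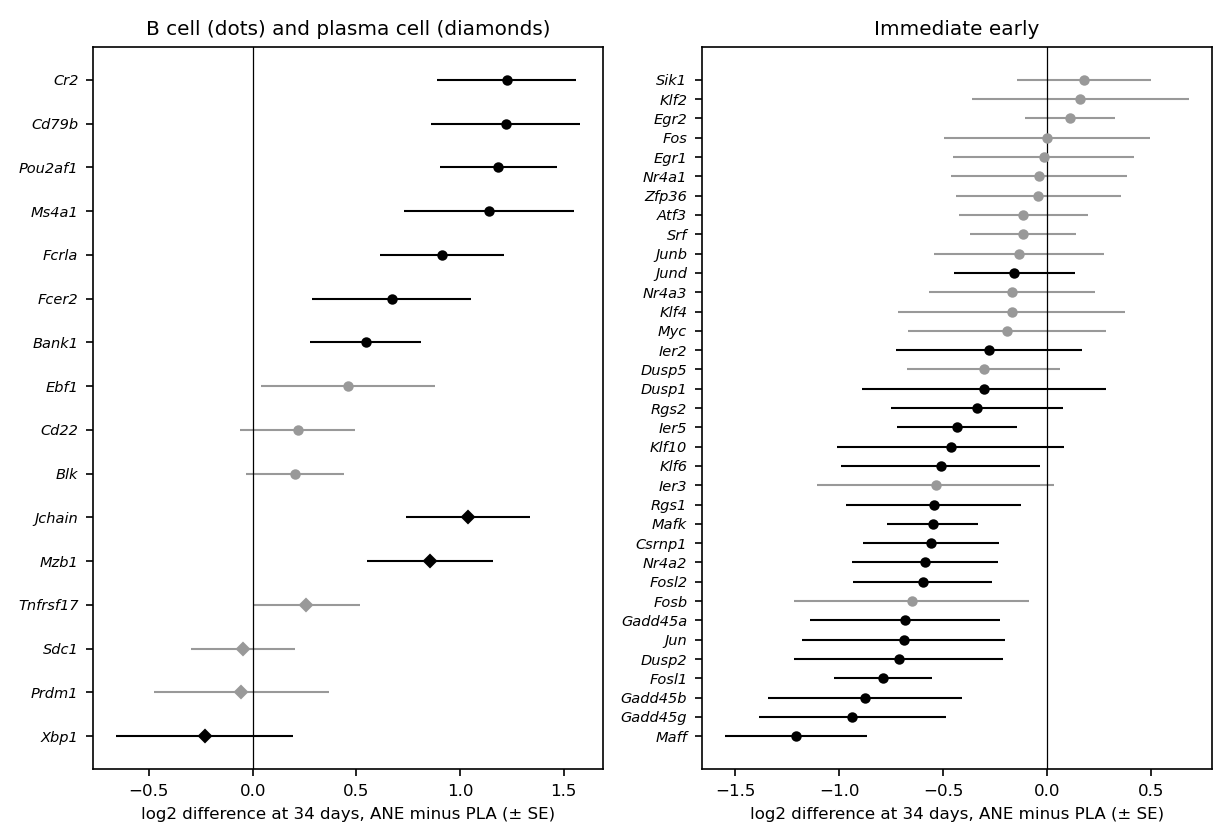
Difference in log2 level at 34 days, ANE minus PLA (horizontal axis, bars ± SE), for each gene of the B cell and plasma cell lists and of the immediate early list; black marks genes whose arms did not overlap and grey those whose arms did. All 10 B cell genes lay above 0 and 32 of 35 immediate early genes below it, with Fos and Egr1 near 0.

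Other single genes were lower in ANE. Cks2, a subunit of cyclin-dependent kinases, had the largest moderated statistic of the lower genes: it was at 9.57 and 9.43 in ANE and at 10.67 and 10.56 in PLA, a difference of -1.12 (SE 0.24, unadjusted p = 0.00034, limma adjusted p = 1). The gap between the arms was wider than the gap within either pair, but the other 20 arrays spanned 8.06 to 11.55. Traf6, the ubiquitin ligase below Toll-like and interleukin 1 receptors, had 4 probe sets, all lower in ANE without overlap, with differences from -1.40 to -0.86. At the one with the largest difference it was at 8.01 and 8.46 against 9.50 and 9.76 (SE 0.43).

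Smad7, the inhibitor of TGF-beta signalling, was at 7.31 and 8.23 in ANE and at 9.05 and 8.81 in PLA, a difference of -1.16 (SE 0.44). A second, dimmer Smad7 probe set had overlapping arms and a difference of -0.16 (SE 0.23). Zbtb43, a zinc finger protein, was at 7.60 and 7.93 against 9.04 and 8.64, a difference of -1.07 (SE 0.31). Sgk1, a kinase induced by glucocorticoids and salt, was at 9.03 and 9.38 against 10.27 and 10.05, a difference of -0.96 (SE 0.42). At the levels given for these 3 genes the PLA rats were above the ANE rats. The 23 genes of the glucocorticoid list had a median of -0.28. Of these genes 14 were lower and 0 higher without overlap, against 24.2% and 21.7% of all genes. Yet Fkbp5, a common marker of glucocorticoid action, was at 8.45 and 8.57 in ANE and at 7.93 and 9.0 in PLA. Tsc22d3 differed by -0.13 (SE 0.28). The clock gene Per1, also a target of the hormone, differed by -0.69 (SE 0.37) with both ANE rats lower. The 19 circadian genes had a median of -0.22, with 11 lower and 2 higher without overlap, against 24.2% and 21.7% of all genes. Among the lower ones were Hlf at -0.58 (SE 0.19) and Rora at -0.95 (SE 0.44). Both ANE levels of Hlf lay below the medians of their arrays. The hour of blood drawing was not stated, and its part in these differences was not tested.

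Crem, the cyclic AMP response element modulator, which represses its own promoter, had 6 probe sets, all lower in ANE without overlap, with differences from -1.16 to -0.35. At the one past the study's thresholds it was at 7.64 and 7.52 in ANE and at 8.89 and 8.59 in PLA (SE 0.51). Because Crem and Maff were both lower, their promoter windows are shown. Each is a RefSeq sequence of 300 bases, 250 before and 50 after an annotated start, on build GRCr8 and the plus strand, in lower case with the cyclic AMP response element TGACGTCA in capitals. The windows are Maff at chr7:112792537-112792836 and the 2 of 3 Crem windows that hold the element, at chr17:58984547-58984846 and chr17:58985240-58985539.
Maff: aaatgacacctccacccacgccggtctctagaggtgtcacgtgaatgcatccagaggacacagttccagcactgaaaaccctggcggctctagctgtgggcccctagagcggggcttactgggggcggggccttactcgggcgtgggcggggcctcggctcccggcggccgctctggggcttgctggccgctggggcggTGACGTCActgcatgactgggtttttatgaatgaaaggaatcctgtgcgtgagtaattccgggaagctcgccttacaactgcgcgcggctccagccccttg
Crem, first window: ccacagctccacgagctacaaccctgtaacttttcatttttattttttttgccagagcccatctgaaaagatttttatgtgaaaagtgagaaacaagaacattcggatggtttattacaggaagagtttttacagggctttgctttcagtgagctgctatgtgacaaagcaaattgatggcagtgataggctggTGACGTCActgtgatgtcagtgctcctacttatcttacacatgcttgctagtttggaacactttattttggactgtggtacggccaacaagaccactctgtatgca
Crem, second window: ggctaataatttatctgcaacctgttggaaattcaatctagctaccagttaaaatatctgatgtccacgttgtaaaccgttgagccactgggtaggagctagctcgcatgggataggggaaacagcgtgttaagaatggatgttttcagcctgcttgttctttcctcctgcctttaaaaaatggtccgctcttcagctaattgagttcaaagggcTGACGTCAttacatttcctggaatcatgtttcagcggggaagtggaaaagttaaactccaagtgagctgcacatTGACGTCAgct
The element reads the same on both strands, and it occurred in 612 of 33469 windows of the RefSeq table (1.83%). A gene can have several windows, and counted by gene it occurred in 549 of 27457. Among the 25 genes lower past the study's thresholds, 19 had a window and 3 of them held the element, Maff, Crem and the nucleoporin gene Nup133; of 38 higher genes 29 had a window and 1 held it. The motif was chosen after these genes were seen, and a match of letters is a description, not a site in use.

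Among the other genes of the rule that were higher in ANE, Nadk2, the mitochondrial NAD kinase, was at 8.17 and 8.56 in ANE and at 6.96 and 7.37 in PLA, a difference of 1.21 (SE 0.28). PLA rep 1 and rep 2 were the lowest of the 24 rats there, the other 20 lying between 7.40 and 8.84. Acat2, a cytosolic thiolase of sterol synthesis, was at 7.87 and 8.25 against 6.97 and 7.06, a difference of 1.05 (SE 0.36). Plekhb1, a membrane-bound pleckstrin domain protein, was at 5.98 and 6.14 against 4.88 and 4.76, a difference of 1.24 (SE 0.39), with both PLA levels below the medians of their arrays. Both ANE rats were above both PLA rats in each.

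Several of the 30 genes had a second, brighter probe set with a smaller difference. Eeig2 differed by 1.78 (SE 0.41) at a dim probe set, at 6.40 and 7.01 in ANE and 4.90 and 4.95 in PLA, but by 0.39 (SE 0.35) at the brighter one. Dguok, the mitochondrial deoxyguanosine kinase, differed by 2.26 (SE 0.57) and by 0.33 (SE 0.23). The actin capping gene Capzb differed by 1.21 (SE 0.28) and by 0.02 (SE 0.19), and the sorting nexin gene Snx8 by 1.08 (SE 0.28) and by 0.29 (SE 0.21).

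The same held on the PLA side. Tfec, a transcription factor of macrophages, was at 4.12 in both ANE rats and at 5.29 and 5.51 in PLA, a difference of -1.28 (SE 0.28). These Tfec levels all lay below the medians of their arrays, and at its brighter probe set it differed by -0.17 (SE 0.51). Rybp, a Polycomb subunit, differed by -1.19 (SE 0.41) and by 0.02 (SE 0.27), and Rictor, a subunit of an mTOR kinase complex, by -1.10 (SE 0.39) and by -0.20 (SE 0.38). Chmp1b, of the membrane-cutting ESCRT machinery, had 4 probe sets, of which 3 were lower in ANE without overlap, with differences from -1.14 to -0.46, and the brightest differed by -0.17 (SE 0.34). Differences between the probe sets of a gene were not tested.

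In other lower genes ANE rep 2 lay farthest from the rest. Dpt, which encodes the matrix protein dermatopontin, was at 6.70 and 5.03 in ANE and at 6.96 and 7.55 in PLA, with 6.21 to 7.57 in the other 20 rats. Pxmp4, a peroxisomal membrane protein, was at 6.85 and 5.81 against 7.44 and 7.56 at its dimmer probe set, with 6.41 to 7.46 in the others. ANE rep 2 was thus the lowest of the 24 rats in both, and the differences were -1.39 (SE 0.43) and -1.17 (SE 0.33). At its brighter probe set Pxmp4 was at 6.91 and 5.43 against 7.97 and 7.83, a difference of -1.73 (SE 0.51). Tubb6, a tubulin, was at 7.26 and 6.27 against 7.90 and 8.09, a difference of -1.23 (SE 0.44). Without ANE rep 2 the differences were -0.56 for Dpt, -0.65 for Pxmp4 (dimmer probe set) and -0.74 for Tubb6, since ANE rep 1 also lay below both PLA rats.

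Inflammatory genes were mostly lower in ANE but varied widely between rats. Of 40 cytokine, chemokine and NF-kB target genes 28 were lower on average, with a median of -0.25. Without overlap 20 lay below and 6 above the PLA rats, against 24.2% and 21.7% of all genes. The median was -0.16 without PLA rep 1 and -0.50 without PLA rep 2. Il1b, the inflammasome cytokine, was at 10.27 and 11.84 in ANE and at 12.35 and 12.30 in PLA, a difference of -1.27 (SE 1.04, 95% interval -3.48 to 0.94). F3, tissue factor, which starts coagulation on monocytes, was at 3.90 and 5.51 against 6.20 and 6.97, a difference of -1.88 (SE 0.75). In both genes ANE rep 1 was the lowest of the 4 rats, and for F3 both ANE levels lay below the medians of their arrays.

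Icam1, the adhesion molecule of activated leukocytes, was at 10.13 and 10.03 in ANE and at 11.10 and 10.65 in PLA, a difference of -0.79 (SE 0.53). Nfkbia, the NF-kB inhibitor that NF-kB itself induces, was at 12.88 and 12.92 against 13.41 and 13.36, a difference of -0.49 (SE 0.52). Some mediators of inflammation had small or opposite differences: the cytokine gene Tnf differed by 0.39 (SE 0.75, 95% interval -1.20 to 1.99), and the chemokine genes Cxcl1 by 0.02 (SE 1.02) and Ccl2 by 0.62 (SE 0.94, 95% interval -1.38 to 2.61). Of the list, 3 genes had an unadjusted p under 0.05, all lower (1.28% of all genes were lower at that level). Adora2a, the adenosine receptor that damps leukocytes, was at 7.64 and 7.92 in ANE and at 8.73 and 8.40 in PLA, a difference of -0.79 (SE 0.36).

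Over the 17 genes of the coagulation list the arms did not overlap in 4 with ANE higher and in 2 with ANE lower, near or below the 21.7% and 24.2% of all genes, and the median was 0.16. Single members are given as values. Tfpi, the inhibitor of the tissue factor pathway, was at 6.48 and 6.66 in ANE and at 5.80 and 5.99 in PLA, a difference of 0.67 (SE 0.21). F2r, a thrombin receptor, was at 6.73 and 8.24 against 6.66 and 6.32, a difference of 0.99 (SE 0.45). Procr, the endothelial receptor of protein C, was at 8.26 and 7.93 against 5.98 and 7.13, a difference of 1.54 (SE 0.73).

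Cell cycle genes went both ways, with more of them higher. Of 39 genes 28 were higher and 11 lower on average, and the median was 0.17. The arms did not overlap in 14 with ANE higher and in 5 with ANE lower, against 21.7% and 24.2% of all genes. Cdc25b, a cell cycle phosphatase, differed by 1.24 (SE 0.50). Ccnb1, the mitotic cyclin, was at 6.06 and 6.19 in ANE and at 5.44 and 5.49 in PLA, a difference of 0.65 (SE 0.25), and Mki67, the proliferation antigen, differed by 0.61 (SE 0.40), whereas Cks2 and the replication clamp Pcna, at -0.49 (SE 0.40), were lower. Of 28 hypoxia and glycolysis genes 2 were higher and 13 lower without overlap (21.7% and 24.2% of all genes), with a median of -0.15. Eno1, the glycolytic enolase, was at 10.96 and 10.67 in ANE and at 11.16 and 11.20 in PLA, a difference of -0.37 (SE 0.15), and Vegfa, the vascular growth factor, was at 4.41 and 4.79 against 5.64 and 5.03, a difference of -0.73 (SE 0.36). None of these passed adjustment. The Vegfa levels of both ANE rats and of PLA rep 2 lay below the medians of their arrays, as did the Ccnb1 levels of both PLA rats.

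The list of volatile anaesthetic targets was made up of ion channels and receptors such as tandem-pore potassium channels and glutamate receptors. It had 18 measured genes and a median of -0.08, with 3 higher and 5 lower without overlap (21.7% and 24.2% of all genes). Kcnk5, a potassium channel of the tandem-pore family, was at 5.04 and 5.58 in ANE and at 6.01 and 5.91 in PLA, a difference of -0.65 (SE 0.26), and was the only gene of the list with an unadjusted p under 0.05. Its level in ANE rep 1 lay below the median of that array. Chaperones went both ways, with more of them lower and a median of -0.22. Of 25 heat shock and unfolded protein genes 5 were higher and 14 lower without overlap, against 21.7% and 24.2% of all genes. Hspa4 differed by 1.06 (SE 0.46), Hsph1 by 0.78 (SE 0.30) and Hspa1a by 0.57 (SE 0.24). Both PLA levels of Hspa1a lay below the medians of their arrays. The endoplasmic reticulum gene Herpud1 differed by -0.93 (SE 0.42) and the cochaperone Dnajb1 by -0.58 (SE 0.22). At a dimmer Dnajb1 probe set the arms overlapped and the difference was -0.14 (SE 0.20). For 33 of 34 ribosomal protein genes and 49 of 58 genes of the mitochondrial respiratory chain the ANE mean was lower, with 26 and 34 lower without overlap, against 24.2% of all genes. The medians were -0.11 and -0.14. With single rats left out they lay between -0.13 and -0.07 and between -0.19 and -0.07, so both stayed below 0. The median SE of 0.27 belongs to single probe sets and does not measure the spread of a list median. In neither list did a gene have an unadjusted p under 0.05.

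The 7 lists the study had compiled lay close to 0: medians were 0.06 for early mechanotransduction (Mec.E), 0.03 for early healing (Heal.E), -0.0041 and -0.04 for the 2 lists of epithelial to mesenchymal transition (EMT and EMT.T2), 0.05 and 0.02 for wound healing and response to wounding (whGO and rwGO) and -0.03 for inflammation (InflGO). Of 308 InflGO genes 65 were higher and 81 lower without overlap, and of 427 rwGO genes 98 were higher and 96 lower. Over all genes 21.7% were higher and 24.2% lower without overlap.

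**Figure D4:**
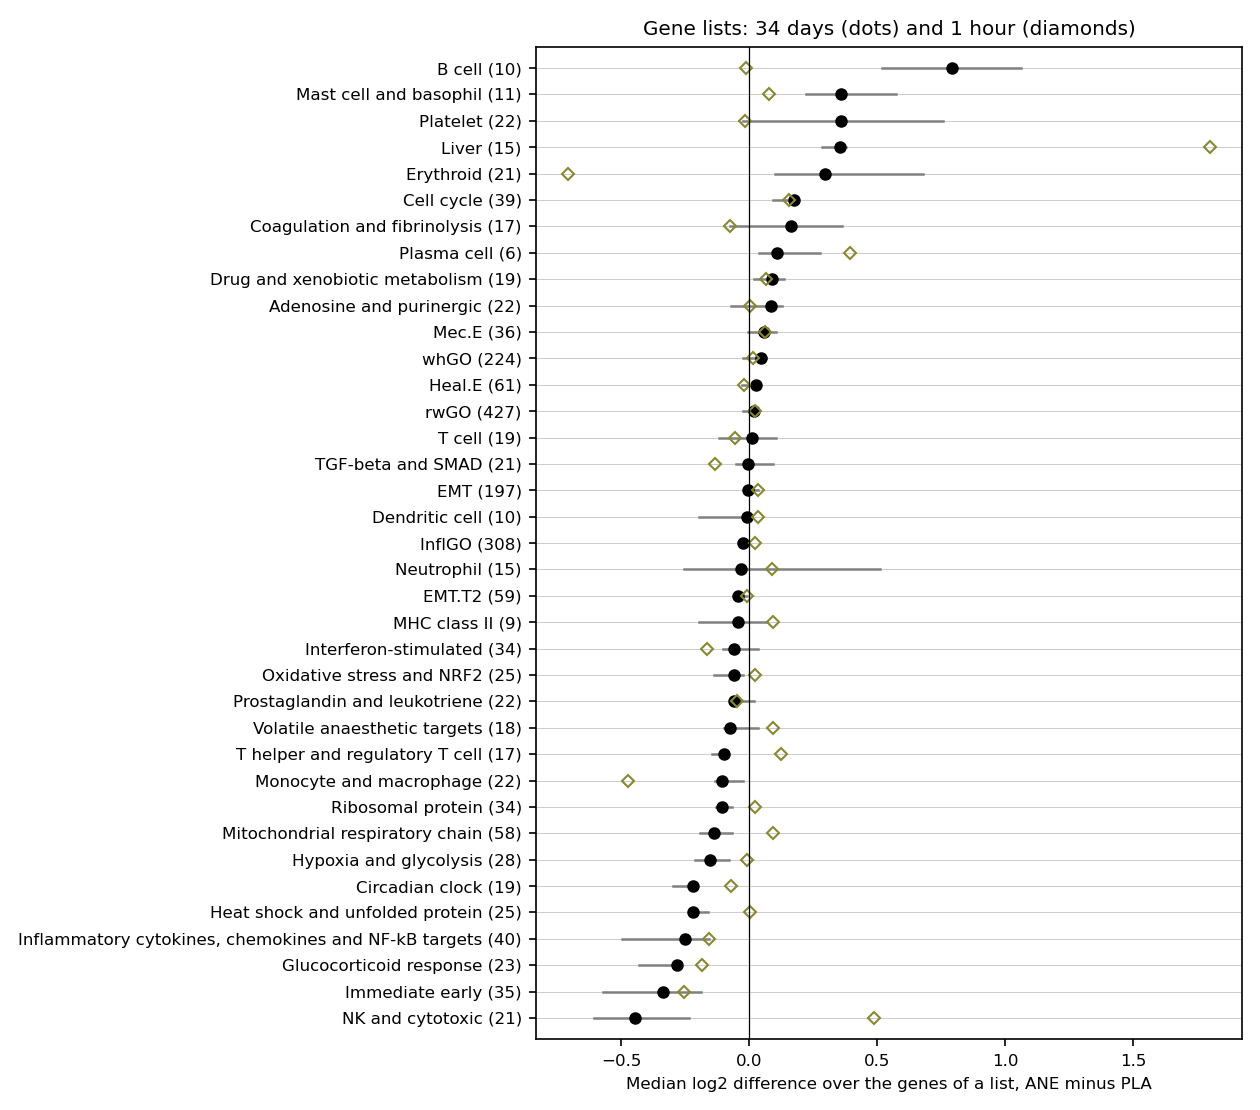
Median log2 difference, ANE minus PLA (horizontal axis), over the genes of each list (number of genes in brackets) at 34 days (dots) and at 1 hour (diamonds); grey bars span the 34-day medians with each of the 4 rats left out. The B cell list lay highest at 0.79 and the NK and cytotoxic list lowest at -0.45, and the 7 study lists lay within 0.06 of 0.

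A few of the genes with the largest differences stood at either a low or a high level among all 24 rats, in several arms. Mx2, an interferon-induced GTPase that blocks viruses, was at 8.19 and 8.68 in ANE and at 3.83 and 3.84 in PLA, a difference of 4.59 (SE 1.15). The PLA levels lay below the medians of their arrays, 5.55 and 5.56, and no detection call was used, so no fold is given. Over all 24 rats 7 had a level of 6.68 or more and 17 of 4.13 or less; the high rats included both healthy rats at 1 hour, and in 3 groups 1 rat was high and the other low. A second, brighter probe set of Mx2 was at 6.51 and 6.69 in ANE and 6.71 and 6.63 in PLA and did not separate the arms (difference -0.07, SE 0.48). Other interferon-induced genes had small or opposite differences: Mx1, the closest relative of Mx2, differed by 0.25 (SE 0.44) and Isg15 by -1.18 (SE 0.61). The 34 genes of the interferon list had a median of -0.06.

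The same split was seen in class I genes of RT1, the major histocompatibility complex of the rat, whose alleles differ strongly between animals of an outbred stock such as Wistar. RT1-CE10 was at 12.40 and 11.97 in ANE and at 8.67 and 8.86 in PLA, a difference of 3.42 (SE 1.20), and RT1-CE16 was at 9.83 and 9.67 against 6.92 and 6.74, a difference of 2.92 (SE 1.08). For RT1-CE10 7 of the 24 rats lay at 11.94 or more and 17 at 9.08 or less, with 3 groups split. These probe sets can bind several class I transcripts. In the other direction RT1-Bb, a class II beta chain, was at 10.07 in ANE rep 1 and at 6.02 in ANE rep 2, against 10.40 and 10.68 in PLA, and ANE rep 2 was the lowest of the 24 rats, the next being at 7.85. The second RT1-Bb probe set gave 10.57 and 11.73 in ANE and 11.22 and 4.28 in PLA, so a different rat was low there. RT1-N2 was at 7.40 and 5.14 against 7.63 and 8.53, and RT1-A was at 8.52 and 7.71 against 9.22 and 9.18, again with ANE rep 2 lowest. The rats' alleles were not typed, and their part in these differences was not tested.

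Pkia, an inhibitor of protein kinase A, behaved in a like way: it was at 9.67 and 9.24 in ANE and at 6.80 and 6.83 in PLA (difference 2.64, SE 1.07), and 8 of the 24 rats lay at 8.69 or more, with 4 groups split. A gap of over 1 between neighbouring levels, with at least 3 rats on each side, was found in 6 of the 111 probe sets past the study's thresholds (5.41%) and in 46 of all 20690 (0.222%). This measure was chosen after the levels were seen, and thresholds on the difference between arms favour such gaps, so the higher share is a description only. In contrast Phf7, a PHD finger gene, was higher at both its probe sets, at 7.94 and 8.22 in ANE against 6.67 and 6.64 in PLA at the brighter one (difference 1.43, SE 0.36), with 5.96 to 8.50 in the other 20 arrays.

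**Figure D5:**
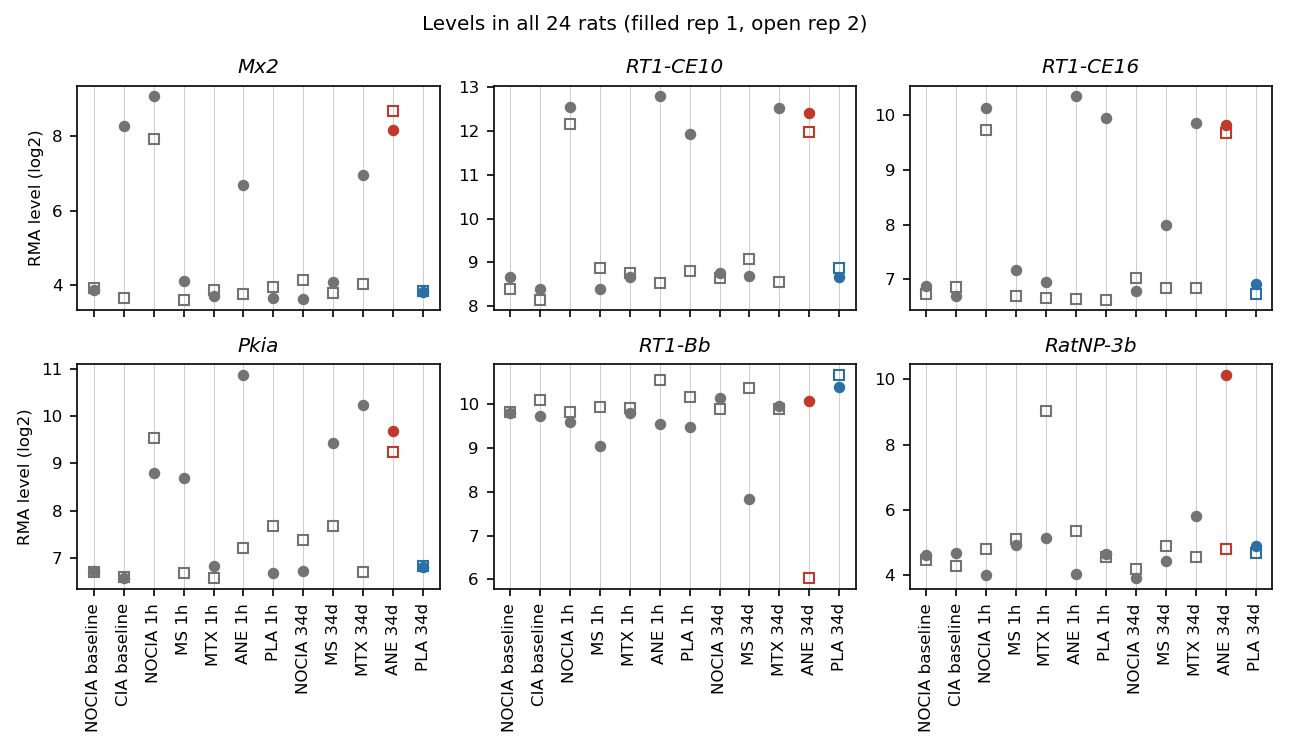
RMA level (log2, vertical axis, own scale per panel) of 6 genes in all 24 rats by group, with ANE at 34 days in red and PLA at 34 days in blue; filled symbols are rep 1 and open symbols rep 2. Mx2 and RT1-CE10 were high in 7 rats and low in 17, with both ANE rats among the high ones, while RT1-Bb was low and RatNP-3b high in 1 ANE rat.

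Granule genes set 1 ANE rat apart. RatNP-3b, a neutrophil defensin, was at 10.15 in ANE rep 1 and at 4.79 in ANE rep 2, against 4.87 and 4.66 in PLA. Defa5, of the same family, was at 9.68 and 5.47 against 5.47 and 5.00. Prg2, the major basic protein of eosinophils, was at 8.01 and 4.88 against 4.60 and 4.47. In all 3 only ANE rep 1 of the 4 rats was high, so the differences of 2.71 (SE 1.26), 2.34 (SE 0.95) and 1.90 (SE 0.62) rested on that rat. Outside these arms RatNP-3b was high in 1 rat, MTX at 1 hour rep 2, at 9.04. Mcpt8, a basophil protease, showed the same order, at 7.21 and 5.45 in ANE and 5.36 and 5.09 in PLA. Lcn2, the siderophore-binding lipocalin of neutrophil granules, was higher in both ANE rats, at 7.15 and 5.49 against 4.26 and 3.85, a difference of 2.27 (SE 0.56). Its levels in ANE rep 2 and in both PLA rats lay below the medians of their arrays. S100a9, an abundant calcium-binding protein of mature neutrophils and monocytes, overlapped, at 12.35 and 13.36 in ANE and 12.62 and 13.48 in PLA. The 15 neutrophil genes had a median of -0.03, with 3 higher and 1 lower without overlap (21.7% and 24.2% of all genes). The sign of that median turned with single rats, from 0.29 without ANE rep 1 and 0.51 without PLA rep 2 to -0.25 without PLA rep 1. Of the 11 mast cell and basophil genes 7 were higher and 0 lower without overlap, against the same shares of all genes. Their median was 0.36, and it was 0.22 without ANE rep 1 and 0.57 without ANE rep 2. The defining markers were dim, and Fcer1a, a chain of the IgE receptor, lay between 3.49 and 3.98. ANE rep 1 also had the highest mean over the 22 platelet genes, 11.39 against 10.57 to 10.86 in the other 3 rats, and the median of that list was 0.36 with it and -0.03 without it. The part of these cells in other differences was not tested.

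In red cell genes 1 PLA rat stood lowest. Alas2, the first enzyme of haem synthesis in red cell precursors, was at 13.01 and 12.76 in ANE and at 11.52 and 12.49 in PLA, a difference of 0.89 (SE 0.63). Fech, the last enzyme of that pathway, was at 12.85 and 12.65 against 10.61 and 12.08, and the anion exchanger Slc4a1 was at 12.36 and 11.59 against 9.91 and 11.42. PLA rep 1 was the lowest of the 4 rats in each. The median of the 21 erythroid genes was 0.30, and it was 0.67 against PLA rep 1 alone, 0.11 against PLA rep 2 alone and 0.10 without ANE rep 1. Several genes past the study's thresholds were also lowest in PLA rep 1, among them Ncoa4, the receptor that delivers ferritin for breakdown, at 12.41 and 12.44 in ANE and 10.86 and 11.91 in PLA, Glrx5, an iron-sulphur cluster glutaredoxin, at 12.82 and 12.52 against 11.08 and 12.06, and Ube2o, a ubiquitin ligase of reticulocyte maturation, at 12.43 and 12.21 against 10.60 and 11.57. Tspan33, a tetraspanin known from red cell precursors and activated B cells, was at 9.25 and 9.14 against 7.11 and 7.60, a difference of 1.85 (SE 0.76). The part of red cell RNA in these differences was not tested.

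At 1 hour, in other rats of the same 2 arms, the comparison gave 5 called probe sets (0.0242%), all higher in ANE: Sult1b1, Pck1, Fmo5, Pon1 and Nrf1. These calls were not stable: 0 were made in the 4 arrays of that time alone or with the filter at the 60th percentile, and leaving out 1 of the 4 arrays gave 1 to 237 calls, with 0 of the 5 among them without PLA rep 1. At 34 days the first 4 were within 0.12 of 0, at 0.10, -0.12, -0.03 and -0.12, and Nrf1 differed by 0.36 (SE 0.15). The 15 measured genes of the liver list, which held a median of 1.80 at 1 hour, had one of 0.36 at 34 days, with mean levels of 5.10 and 5.21 in ANE and 4.87 and 4.77 in PLA. At 1 hour the means were 8.38 and 6.03 in ANE and 5.00 and 5.68 in PLA, so the highest was that of ANE rep 1, an array that stood apart. A test of the difference between the 34-day and the 1-hour contrast called 0 of 20690 probe sets (0%) in limma, with 590 (2.85%) at an unadjusted p under 0.05.

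The B cell genes, the red cell genes and the NK genes had other values at 1 hour. The B cell median was -0.01 at 1 hour and 0.79 at 34 days, although Cd79b, at 0.85 (SE 0.36), and Jchain, at 1.10 (SE 0.30), were higher in ANE at 1 hour too. The erythroid median was -0.71 at 1 hour with 2 of 21 genes higher and 12 lower without overlap, against 14.2% and 13.9% of all genes at that time, and the NK median was 0.49 with 3 of 21 genes higher without overlap. The mean NK level at 1 hour was 10.36 and 8.91 in ANE and 9.15 and 9.27 in PLA, so the arms overlapped and ANE rep 1 alone was high. The immediate early median was -0.26 at 1 hour, with 6 of 35 genes higher and 6 lower without overlap, against 14.2% and 13.9% of all genes. Maff differed by -0.81 (SE 0.34), Cks2 by -0.56 (SE 0.24), Zbtb43 by -1.03 (SE 0.31) and Sgk1 by -1.16 (SE 0.42) at 1 hour, all with both ANE rats below both PLA rats, as at 34 days.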

How the data were processed

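The deposited values are log2 levels per probe set of an Affymetrix rat expression array. The submitters' processing notes name affy and RMA for the authors' normalization, without versions. The study's supplementary methods also describe MAS5 with detection calls; the deposited log2 values, from array medians of 5.49 to 5.58, were used as RMA levels. Cells were isolated on a Ficoll gradient and, per the labels, RNA was extracted in a single batch. Compression of very abundant transcripts by RMA can understate their changes.

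Of 31099 probe sets, 57 controls were left out, and 20690 were kept that exceeded the 40th percentile of their own array on 2 or more arrays. Names came from the platform annotation (20843 probe sets with 1 symbol, 425 with several, 9831 with none; 20830 matched a current RefSeq entry). A gene stands at its probe set with the highest mean over the 24 arrays, unless another is named. limma 3.58.1 (R 4.3.3; lmFit, eBayes) fitted 1 mean per group over 24 arrays, with 12 residual degrees of freedom and Benjamini-Hochberg adjustment within a comparison. An exact two-sided permutation test of 2 against 2 rats cannot go below p = 0.333, so none was used. The number of arrays limits the precision. The steps were tested on simulated data.

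Named genes were, per direction, the 15 with the largest moderated statistic among probe sets past the study's thresholds (no call being made), up to 4 members per direction of each list, and a fixed set of further genes. Lists are described by counts and medians. Cd22, Blk, RT1-Da, Gadd45b and Tsc22d3 were added from the lists. The members, lists and alternatives were chosen with earlier results of these data known; the promoter motif, the gap measure and the genes behind small counts were chosen after their values were seen.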

Additional observations from a re-analysis of the deposited data

Results flagged for a closer look

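For 11 named genes the arms did not overlap at 34 days and did not overlap in the opposite direction at 1 hour. Over all genes the arms did not overlap in 21.7% (ANE higher) and 24.2% (ANE lower) at 34 days. At 1 hour these shares were 14.2% and 13.9%. The share of all genes that turned in this way was not counted, so the 11 genes are a description only. The difference between the contrasts (34 days minus 1 hour) was tested in limma, and every adjusted p was 1. Of these, 9 were higher in ANE at 34 days and lower at 1 hour: Slc16a10, an amino acid transporter (2.86, SE 0.79), Slc4a1 (2.60, SE 1.05), Fzr1, an activator of the anaphase-promoting complex (2.57, SE 0.99), Gclm, a subunit of the first enzyme of glutathione synthesis (2.48, SE 0.80), Fech (2.37, SE 1.10), Cdc25b, a cell cycle phosphatase (2.23, SE 0.70), Glrx5 (1.91, SE 0.71), Ncoa4 (1.79, SE 0.66) and Ube2o (1.75, SE 0.66). The other 2 were lower in ANE at 34 days and higher at 1 hour: Fosl1 (-1.37, SE 0.33) and Hlf (-0.97, SE 0.26).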

How the results depend on the processing

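The count of 0 calls at 34 days stayed at 0 when all probe sets were tested, when the filter was set to the 60th percentile, after quantile normalization and with limma-trend and robust eBayes. It was 12 in a fit of the 4 arrays alone, 5 without the 4 arrays that stood apart and 85 with array quality weights, and 0 to 1 with each of the 4 arrays left out, the 1 being Prg2 without ANE rep 2. The 111 probe sets past the study's thresholds became 189 in the 4 arrays alone (105 shared), 190 with array weights (111 shared) and 90 to 164 with an array left out. The 5 calls at 1 hour became 785 without the 4 arrays that stood apart, which leaves 1 rat per arm there, 15 after quantile normalization, 2 with array weights, 0 at the 60th percentile, 0 in the 4 arrays alone, and 1 to 237 with an array left out (86 without ANE rep 1, 237 without ANE rep 2, 2 without PLA rep 1 and 1 without PLA rep 2). The 0 calls for the difference between times became 64 without the 4 arrays, 2 with array weights and 0 to 33 with an array left out (12 without ANE at 1 hour rep 1 and 33 without ANE at 1 hour rep 2). The cause was not tested.

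Replicate numbers are not known to pair rats: over probe sets, deviations of same-numbered ANE and PLA arrays at 34 days correlated at -0.10. A replicate block gave 0 calls and 115 probe sets past the study's thresholds at 34 days, 6 calls at 1 hour and 0 for the difference. The crossed pairing, added after seeing the data, gave 0 and 110.

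Of the 30 genes of the rule 21 were called with array weights; their directions were fixed by the choice of genes. Of 17 list medians, 17 moved by less than the spread between rats under quantile normalization, no filter and the mean of all probe sets. With a rat left out 1 to 5 moved by more. Medians near 0 changed sign: that of the anaesthetic targets was 0.04 without ANE rep 2, and the neutrophil, T cell and MHC class II medians also turned with single rats. The platelet median of 0.36 was not near 0, yet it was -0.03 without ANE rep 1. With 2 rats per arm, differences of single probe sets near the median SE of 0.27 could not be resolved.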
